A study of Mus musculus with 6 samples.

Results

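The genes described here encode the respiratory chain and the RNAs of the mitochondrial genome. They are the rows of all 6 deposited tables whose symbol begins with Nduf, Uqcr, Cox4, Cox5, Cox6, Cox7, Cox8, Atp5 or mt-, or is Sdha, Sdhb, Sdhc, Sdhd, Cyc1 or Cycs. The rule found 125 of the 30631 genes listed: 94 nuclear genes, 24 mt- genes on the mitochondrial chromosome and 7 pseudogenes. The cells were mouse embryonic stem cell derivatives made in hanging drops, sorted for the surface protein CD166 at stage 7+1 days and described in the labels as sinoatrial node-like cardiomyocytes, the pacemaker cells of the heart. RNA sequencing of 500 ng of total RNA was done on 3 samples labelled wild type, here WT1, WT2 and WT3, and 3 labelled Shox2-/-, here KO1, KO2 and KO3. Shox2 encodes a transcription factor of the pacemaker lineage. The KO titles share a single clone-like prefix and the WT titles have 3 distinct prefixes. The labels do not explain the prefixes. Genotype therefore cannot be told apart from whatever they mark, such as a clone of origin. No label says that samples of a group were separate cultures, and the p-values below therefore reflect sample-to-sample spread that could be partly technical.

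The respiratory chain sits in the inner mitochondrial membrane. Complexes I and II feed electrons from NADH and succinate to ubiquinone, complex III passes them to cytochrome c, complex IV passes them to oxygen, and complex V, the ATP synthase, uses the proton gradient to make ATP. Most subunits are encoded in the nucleus and imported. The mitochondrial genome encodes a small set of hydrophobic core subunits together with the ribosomal and transfer RNAs that translate them, and beating cardiomyocytes depend heavily on this pathway for ATP.

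The libraries differed in other features than the labels. Reads assigned to genes ranged from 13504683 to 34650564 per library, with WT1 and KO1 the shallowest. Shox2 itself read 89.6, 83.4 and 31.4 normalized counts in WT1 to WT3 and 201, 548 and 373 in KO1 to KO3. It was thus higher in the libraries labelled knockout. The labels do not describe the allele, and so these reads cannot check the labels. Each difference given here is therefore between libraries labelled knockout and libraries labelled wild type. Summed cardiomyocyte markers, 15 of 15 detected, ranged from 13237 to 35306 normalized counts in the WT libraries and from 16784 to 41522 in the KO libraries, with WT3 and KO1 lowest. Summed mesenchyme markers, 9 of 9 detected, ranged from 373245 to 596094 in WT and from 176402 to 278764 in KO, without overlap. Col3a1 made up a large part of that sum, at 221716, 217111 and 333969 in WT and 111600, 106540 and 177188 in KO. Col1a1, Col1a2, Dcn, Lum and Dpt were also lower without overlap, whereas Postn, Pdgfra and Thy1 overlapped. Summed endoderm markers, 8 of 8 detected, ranged from 3108 to 8338 in WT and from 436 to 2733 in KO, also without overlap. Within that sum the markers were divided. Afp read 1490, 1429 and 7020 in WT and 70.9, 728 and 582 in KO. Afp and the scarce Alb were lower without overlap, Amn was higher without overlap, and Apoa1, Ttr, Foxa2, Sox17 and Cubn overlapped. Of 7 epithelium markers 7 had a fitted log2 change below 0, with a median of -1.12, and Cdh1, Cldn6, Cldn7 and Esrp1 were lower in KO without overlap, although their sum with the abundant Krt8 and Krt18 overlapped, as did the sums of endothelium and blood markers. Summed sinoatrial markers, 10 of 10 detected, ranged from 3735 to 7336 in WT and from 3775 to 4240 in KO. This sum joins genes that went opposite ways. Shox2 and Isl1 were higher and Tbx18 and Smoc2 lower in KO, each without overlap, and Smoc2 alone read 5712 in WT3. The part of these differences in the results below was not tested, and in bulk RNA fewer cells of a type and less RNA per cell cannot be told apart. The Y-linked genes Kdm5d, Uty, Ddx3y and Eif2s3y were lower in KO without overlap, and most in KO1 and KO3: Ddx3y read 4415, 4436 and 4353 in WT and 938, 4213 and 1096 in KO, although the KO titles share their prefix. WT1 and WT2 lay closer than the other 14 of 15 library pairs, with a median absolute log2 difference over 90 nuclear members of 0.060, against 0.12 to 0.21 elsewhere. WT1, WT2 and KO3 carry Diff9 in their titles, a term the labels do not explain.

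The nuclear genes were, by count, more often higher than lower in the KO libraries, by small amounts, and no gene passed the test. Values are normalized counts, that is, reads per gene divided by 1 size factor per library. The test was limma on log2(value + 1) over the 17034 genes that reached 10 in 3 or more libraries, and 0 of them (0%) had a Benjamini-Hochberg adjusted p under 0.05. Of the members, 111 were tested, and the lowest adjusted p among them was 0.252. At an unadjusted p under 0.05, 7 of the 90 tested nuclear members were higher and 2 lower in KO, beside 6.92% of all genes higher and 7.23% lower. Of the 90, 63 had a fitted log2 change above 0, or 70.0%, beside 51.8% of all genes. The median log2 change of the nuclear members was 0.09 and that of all tested genes 0.01, with quartiles of -0.25 and 0.20. The background depended on level. With the filter raised from 10 to 50, 71.8% of nuclear members and 56.9% of all genes were above 0, with medians of 0.10 and 0.046. KO and WT values did not overlap for 22 of the 90 (24.4%), beside 23.6% of all genes.

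**Figure D1:**
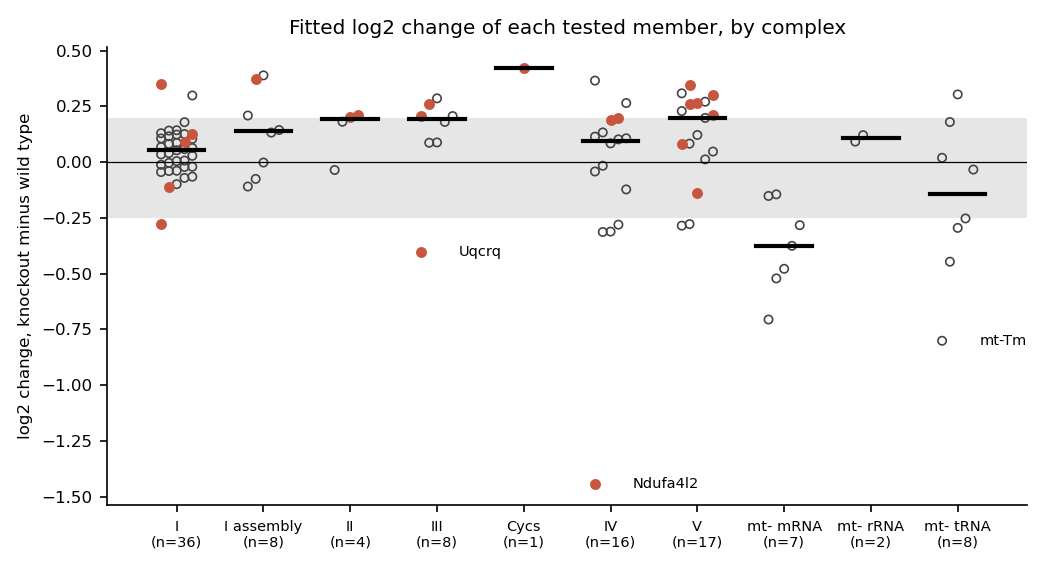
Fitted log2 change (KO minus WT, vertical axis) of each of the tested members outside the pseudogenes, grouped by complex on the horizontal axis. Thick bars are group medians, filled points are genes whose KO and WT values do not overlap, and the grey band holds the quartiles of all 17034 tested genes (-0.25 to 0.20). Complex V has 14 of 17 members above 0 and the 7 mt- protein-coding genes are all below 0.

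Complex V took a larger share of the reads in every KO library than in any WT library. Complex V here means the 17 nuclear genes outside the pseudogenes whose symbol begins with Atp5. Atp5s and Atp5sl are among them, whether or not the product is a subunit of the enzyme. Of these 17 genes 14 were above 0 and 3 below, with a median log2 change of 0.20. That median was 0.11 without WT1 and 0.079 with WT1 and WT2 counted as 1 sample. Together they took 0.345, 0.337 and 0.323% of assigned reads in WT1 to WT3 and 0.393, 0.379 and 0.381% in KO1 to KO3. The mean difference was 0.0496 percentage points, and 0.0402 between KO3 and the mean of WT1 and WT2. Atp5a1 and Atp5b accounted for 0.0399 of the 0.0496 points. The other 15 genes took 0.119, 0.120 and 0.116% in WT and 0.128, 0.127 and 0.130% in KO, still without overlap. KO values lay wholly above WT values for 6 of the 17 genes and wholly below for 1, beside 12.8% and 10.8% of all genes.

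The catalytic head of complex V, where ATP is formed, had all 5 of its genes above 0, with a median of 0.26. The peripheral stalk of complex V had 3 of its 4 genes above 0 and a median of 0.065, with 1 gene wholly above and 1 wholly below. This division into parts is descriptive. Atp5b (chr10:128083273-128090391), the catalytic beta subunit, read 24883, 24314 and 25422 in WT1 to WT3 and 33363, 30223 and 28535 in KO1 to KO3. The KO libraries were higher without overlap, and the log2 change was 0.30 ± 0.11 (SE; limma adjusted p = 0.308). Atp5a1, the alpha subunit, read 25694, 24622 and 23055 in WT and 30029, 28629 and 29414 in KO, again without overlap. Its log2 change was 0.26 ± 0.11 (SE; limma adjusted p = 0.334). The ratio of Atp5a1 to Atp5b stayed between 0.900 and 1.03 in all 6 libraries, and the WT range covered most of the KO range. Atp5c1, the rotating gamma subunit, Atp5d, the delta subunit, and Atp5e, the epsilon subunit, had log2 changes of 0.12, 0.31 and 0.08, each with overlapping libraries.

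**Figure D2:**
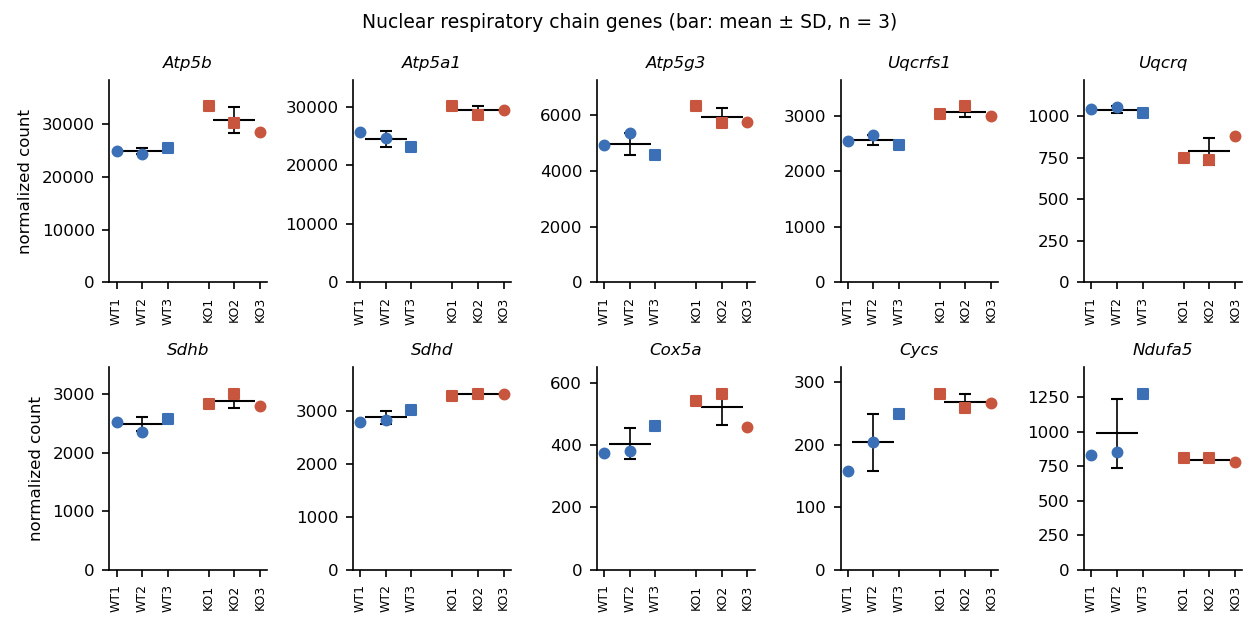
Normalized count (vertical axis, from 0) of 10 nuclear genes in each library (horizontal axis). Blue points are WT, red points KO, circles the libraries with Diff9 in their titles, and black bars the mean ± SD of 3 libraries. Atp5b, Atp5a1, Atp5g3, Uqcrfs1, Sdhb, Sdhd and Cycs are higher in KO without overlap, Uqcrq and Ndufa5 are lower without overlap, and Cox5a overlaps.

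Atp5g1, Atp5g2 and Atp5g3 encode the same c subunit of the rotating membrane ring, and Atp5g3 supplied nearly all of the signal. Per kb of transcript, a scale that allows genes to be compared, Atp5g3 stood at 7545 normalized counts, Atp5g2 at 64.7 and Atp5g1 at 63.8. Atp5g3 read 4956, 5378 and 4571 in WT and 6327, 5735 and 5763 in KO, with a log2 change of 0.26 ± 0.10 (SE; limma adjusted p = 0.333) and no overlap. Atp5g1 read 277, 285 and 232 in WT and 337, 371 and 303 in KO, also without overlap, with a log2 change of 0.35 ± 0.16 (SE; limma adjusted p = 0.366). Atp5g2 showed no separation, at 47.1 ± 5.88 in WT and 47.5 ± 6.48 in KO (SD, n = 3). Of the 50-base words of its transcript, 87.4% also occur in other annotated genes, so its reads may have been assigned elsewhere or dropped. The same holds for Atp5l, the g subunit, at 84.8% and 23.0 normalized counts per kb. Atp5h, the stalk subunit d, was the complex V gene with KO wholly below WT: 1154, 1225 and 1157 against 1107, 1098 and 1007, a log2 change of -0.14 ± 0.10 (SE; limma adjusted p = 0.536).

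Complex III had 7 of 8 nuclear members above 0 and a median log2 change of 0.19, and its lowest p belonged to the gene that was lower. Its share of assigned reads was 0.0754, 0.0734 and 0.0712% in WT and 0.0784, 0.0778 and 0.0810% in KO, without overlap. Uqcrq (chr11:53427922-53430831), a small subunit that contacts cytochrome b, read 1046, 1058 and 1021 in WT1 to WT3 and 751, 737 and 882 in KO1 to KO3. The WT libraries lay within a narrow band and all KO libraries lay below it. The log2 change was -0.40 ± 0.11 (SE; 95% interval -0.67 to -0.14; limma adjusted p = 0.252), the lowest adjusted p of the tested members. Uqcrfs1, the Rieske iron-sulfur protein that takes electrons from ubiquinol, read 2551, 2650 and 2466 in WT and 3026, 3167 and 2995 in KO. It was higher in KO without overlap, by 0.26 ± 0.09 on the log2 scale (SE; limma adjusted p = 0.289). Cyc1, cytochrome c1, the next carrier inside the complex, read 1706, 1767 and 1448 in WT and 2365, 1742 and 1921 in KO, and overlapped. Uqcrh, the hinge subunit, had the highest level per kb of the nuclear complex III genes, 5612, and a log2 change of 0.18 ± 0.11 (SE; limma adjusted p = 0.478).

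Complex II, the enzyme shared with the citric acid cycle and the only complex with no mitochondrially encoded subunit, was higher in KO for its iron-sulfur subunit and 1 of its 2 membrane anchors. Sdhb, the iron-sulfur subunit, read 2529, 2357 and 2581 in WT and 2839, 3012 and 2801 in KO, with a log2 change of 0.21 ± 0.09 (SE; limma adjusted p = 0.353). Sdhd, an anchor, read 2798, 2832 and 3020 in WT and 3296, 3331 and 3332 in KO, with a log2 change of 0.20 ± 0.09 (SE; limma adjusted p = 0.352). Neither gene's libraries overlapped. Sdhc, the other anchor, overlapped, at 3779 ± 293 in WT and 3690 ± 345 in KO (SD, n = 3). Sdha, the flavoprotein, read 4071, 4260 and 4018 in WT and 6012, 4264 and 3960 in KO. KO1 alone lay far above the others, and without it the log2 change of 0.18 became -0.002.

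Cycs, cytochrome c, the mobile carrier between complexes III and IV that also takes part in apoptosis, read 158, 205 and 250 in WT and 282, 258 and 267 in KO. The KO libraries were higher without overlap, the log2 change was 0.42 ± 0.20 (SE; limma adjusted p = 0.380), and the interval ran from -0.04 to 0.88. WT1 and WT3 differed by more than WT3 and any KO library. Of its 50-base words 28.5% occur in other genes, pseudogenes of Cycs among them.

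Complex I had a median close to that of all genes. Of its 36 nuclear subunit genes 24 were above 0 and 12 below, the median log2 change was 0.06, and 0 of 36 had an unadjusted p under 0.05. The median was 0.018 without WT3 and 0.017 with libraries scaled by their totals, a scaling that put the median of all tested genes at -0.025. Its share of assigned reads was 0.265, 0.258 and 0.246% in WT and 0.259, 0.247 and 0.272% in KO, and the groups overlapped.

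Ndufab1, Ndufb8 and Ndufa5 had the lowest p values of the group. Ndufab1, the acyl carrier protein that also serves mitochondrial fatty acid synthesis, read 290, 351 and 334 in WT and 455, 431 and 361 in KO. It did not overlap, with a log2 change of 0.35 ± 0.15 (SE; limma adjusted p = 0.356). Ndufb8, an accessory subunit of the membrane arm, overlapped, with a log2 change of 0.30 ± 0.16 (SE; limma adjusted p = 0.426) that was 0.14 without WT3. Ndufa5, an accessory subunit of the matrix arm, was lower in KO without overlap, at 833, 856 and 1277 in WT against 811.4, 808 and 778 in KO, but WT3 set most of the difference: the 2 nearest values were 833 and 811.4. Ndufa7 had the highest level per kb of the nuclear complex I genes, 4125, and its log2 change of 0.03 turned to -0.004 when libraries were scaled by their totals.

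Assembly factors of complex I that carry the Ndufaf symbol build the complex without staying in it. Of 8, 5 were above 0, with a median log2 change of 0.14, which was 0.064 without KO1. Ndufaf6 was the only 1 of the 8 whose libraries did not overlap, at 221, 226 and 253 in WT and 325, 296 and 286 in KO. Its log2 change was 0.37 ± 0.14 (SE; limma adjusted p = 0.320).

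Complex IV, cytochrome c oxidase, was near balance, with 9 of 16 tested nuclear members above 0 and a median of 0.09. The median ran from 2.8e-05 without WT2 to 0.17 without WT3. Its share of assigned reads was 0.120, 0.119 and 0.127% in WT and 0.120, 0.122 and 0.130% in KO. Cox5a, which joins subunit 4 early in assembly on the core formed by mt-Co1, had the lowest p among the genes that were higher. It read 373, 380 and 462 in WT and 542, 566 and 458 in KO, so that KO3 lay inside the WT range, and its log2 change was 0.37 ± 0.15 (SE; limma adjusted p = 0.339). Cox6a1 and Cox6b1, subunits of the dimer interface and the cytochrome c side, were higher in KO without overlap, with log2 changes of 0.19 ± 0.10 and 0.20 ± 0.10 (SE; limma adjusted p = 0.433 and 0.405).

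Several complex IV subunits exist in a ubiquitous form and in a form restricted to heart and skeletal muscle or to other tissues. In all 6 libraries the ubiquitous form carried nearly all of the signal. Cox6a2, the heart and muscle form of subunit 6a, read 6.64, 1.96 and 4.71 in WT and 0, 1.79 and 0.740 in KO, while Cox6a1 ranged from 1910 to 2467. The KO values of Cox6a2 lay below the WT values, on too few reads for the test. Cox8b, the heart and muscle form of subunit 8, ranged from 0.790 to 5.93 and Cox8a from 1281 to 1708. Cox7a1, the heart and muscle form of subunit 7a, was the best detected, at 54.8, 44.3 and 29.1 in WT and 22.5, 43.8 and 39.3 in KO. Summed with Cox7a2, it made up 0.730 to 2.01% and the groups overlapped. Cox7a1 was lowest in KO1 and WT3, the libraries with the lowest summed cardiomyocyte markers. That coincidence was not tested.

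Cox4i2, a form known from lung and from hypoxic cells, read 59.8, 48.9 and 10.2 in WT and 10.4, 78.7 and 18.5 in KO, where Cox4i1 ranged from 6887 to 8314. Within each label it varied several-fold, again lowest in WT3 and KO1. Cox4i1 had the highest level per kb of the nuclear complex IV genes, 9914, and a log2 change of -0.12 ± 0.10 (SE; limma adjusted p = 0.599). The testis forms were low: Cox6b2 made up 3.96 to 7.61% of Cox6b2 plus Cox6b1, Cox7b2 read at most 3.93, and Cox8c was listed at 0 in all libraries. Cox7a2l, which takes part in joining complexes III and IV into supercomplexes, did not separate, at 1687 ± 23.7 in WT and 1673 ± 170 in KO (SD, n = 3).

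Ndufa4l2 (chr10:127514967-127517154) had the most negative log2 change of the tested nuclear members, on 4 to 64 reads per library. Its product is a relative of the complex IV subunit Ndufa4 and is known as a target of hypoxia signalling. It read 48.1, 41.7 and 19.6 in WT and 6.92, 17.0 and 14.1 in KO. The KO libraries were all lower, though WT3 and KO2 lay close together, and the log2 change was -1.44 ± 0.47 (SE; 95% interval -2.55 to -0.34; limma adjusted p = 0.287). Its level was 26.3 normalized counts per kb, against 4576 for Ndufa4. Ndufa4 read 2400, 2235 and 2986 in WT and 2877, 3461 and 2789 in KO, with a log2 change of 0.26 ± 0.14 (SE; limma adjusted p = 0.435).

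**Figure D3:**
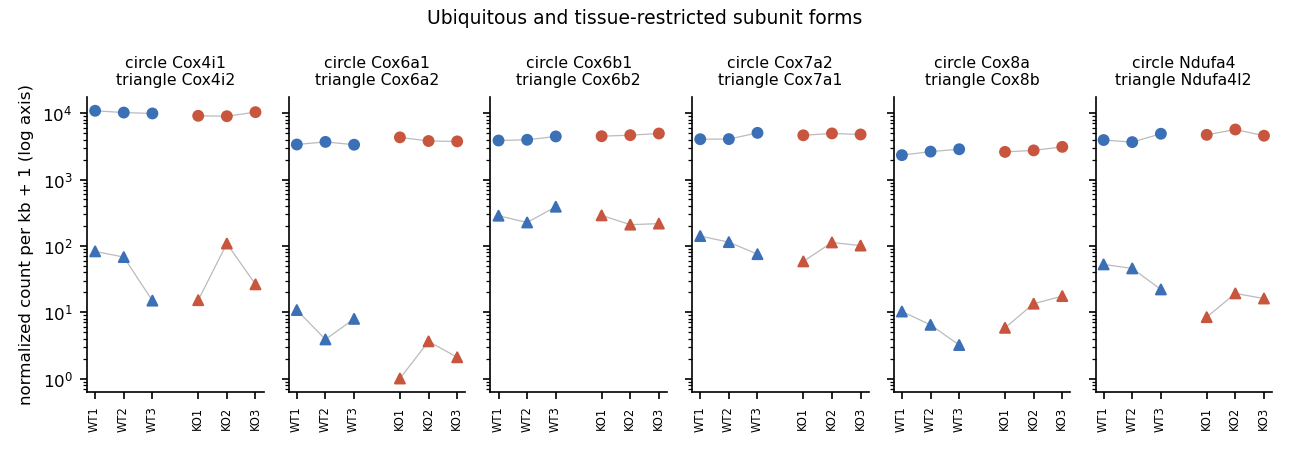
Normalized count per kb of transcript plus 1 (vertical axis, logarithmic) of 6 pairs of subunit forms in each library (horizontal axis). Circles are the common form and triangles the restricted form, blue is WT and red KO, and grey lines only join libraries of a label. The common form lies above the restricted form in every library. Ndufa4l2 is lower in KO without overlap, and so is Cox6a2, on at most 6 reads per library and not tested.

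In the mitochondrial genome 1 library of each label stood apart: WT3 was highest for the messengers and KO1 for the ribosomal RNAs. Of the protein-coding mt- genes that the annotation lists, 7 of 13 were among the rows: mt-Nd1, mt-Nd2, mt-Nd4, mt-Nd5 and mt-Nd6 of complex I, mt-Cytb of complex III and mt-Co1 of complex IV. The others are not analysed here. All 7 had a fitted log2 change below 0, with a median of -0.38, but 0 of 7 had separated libraries and the lowest adjusted p was 0.435. Their share of assigned reads was 0.417, 0.473 and 0.788% in WT1 to WT3 and 0.529, 0.404 and 0.451% in KO1 to KO3. WT3 stood above all others. Without WT3 the median log2 change was 0.11, and the difference in mean share went from -0.0984 to 0.0161 percentage points.

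mt-Co1, the catalytic subunit of complex IV, was the most abundant messenger of the 7 and took 67.8 to 74.7% of their reads. It read 68313, 76106 and 125615 in WT and 90036, 70582 and 74914 in KO, with a log2 change of -0.15 ± 0.25 (SE; limma adjusted p = 0.809). WT3 was highest and the other 5 libraries were interleaved. Of its 50-base words 51.1%, and of those of mt-Nd4 62.2%, occur in other annotated genes. Their reads may therefore have been dropped or assigned in part elsewhere. Of the genes that share words with mt-Co1, Gm13340 read at most 33.1 and Gm11512 at most 14.9. Gm29216, which also shares words with mt-Co1, and Gm28439, which shares words with mt-Nd4, were not listed under those symbols. mt-Cytb, the cytochrome b core of complex III, read 7527, 9478 and 15940 in WT and 9033, 6620 and 8705 in KO. mt-Nd1 and mt-Nd4, membrane-arm core subunits of complex I, had log2 changes of -0.14 ± 0.31 and -0.48 ± 0.26 (SE; limma adjusted p = 0.857 and 0.435). mt-Nd2, another membrane-arm core subunit of complex I, read 1592, 2196 and 5299 in WT and 1933, 1234 and 1787 in KO and had the most negative log2 change of the 7, -0.71 ± 0.42 (SE; limma adjusted p = 0.469). Without WT3 the changes of mt-Nd2 and mt-Nd4 were -0.21 and -0.19.

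WT3 was the highest library for each of the 7 messengers, at 1.74 times the mean of WT1 and WT2 for mt-Co1, 2.10 times for mt-Nd1 and 2.80 times for mt-Nd2. The excess was greatest for mt-Nd6, the only messenger of the 7 on the opposite strand, at 3.89 times. mt-Nd6 read 292, 409 and 1365 in WT and 875, 210 and 299 in KO. KO1 was the second highest, so that the 2 libraries with low cardiomyocyte markers were the 2 with high mt-Nd6, a relation that was not tested. mt-Nd6 overlaps mt-Nd5 by 14 bases on the other strand, and no source says that strand was used in counting, so reads of the pair cannot be told apart there. mt-Nd5 shared the pattern, with 3046, 3708 and 8618 in WT and 5522, 2878 and 3398 in KO.

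**Figure D4:**
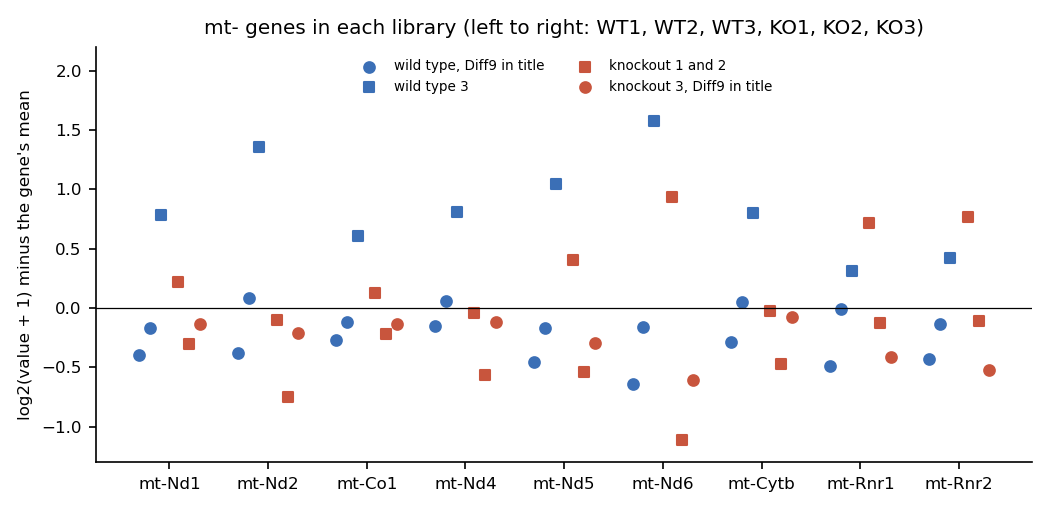
Deviation of log2(value + 1) from the gene's mean over the 6 libraries (vertical axis) for 7 protein-coding and 2 ribosomal mt- genes (horizontal axis). Blue is WT and red KO, and circles mark libraries with Diff9 in their titles. WT3 is the highest library for the 7 messengers, and KO1 is the highest for both ribosomal RNAs.

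The mitochondrial ribosomal RNAs followed another order. mt-Rnr2, the large-subunit RNA and the most abundant member per kb at 95447, read 106274, 130993 and 192239 in WT and 243457, 132946 and 100071 in KO. mt-Rnr1, the small-subunit RNA, read 9557, 13327 and 16609 in WT and 21955, 12293 and 10073 in KO. KO1 was highest for both, at 2.09 and 1.96 times the mean of KO2 and KO3, and the groups overlapped. The log2 changes were 0.09 ± 0.36 and 0.12 ± 0.32 (SE; limma adjusted p = 0.923 and 0.884). The ratio of mt-Rnr2 to mt-Rnr1 stayed between 9.83 and 11.6. The ratio of ribosomal RNA to the 7 messengers was 1.24, 1.35 and 1.13 in WT and 2.10, 1.54 and 1.06 in KO, with KO1 highest. The libraries were made from total RNA, and how ribosomal RNA was removed or messenger RNA selected is not given in the sources used here.

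Set side by side, the nuclear members took 0.881, 0.860 and 0.840% of assigned reads in WT and 0.936, 0.902 and 0.941% in KO, all KO libraries above all WT libraries. Without Atp5a1 and Atp5b, a choice made after the values were seen, the shares were 0.655, 0.644 and 0.634% in WT and 0.670, 0.651 and 0.690% in KO, and KO2 lay below WT1. The 7 mt- messengers gave 0.474, 0.550 and 0.939 reads per nuclear-member read in WT and 0.565, 0.447 and 0.479 in KO, with overlap and with WT3 apart. In WT1, WT2 and KO3, which carry Diff9 in their titles, 69 of 90 nuclear members were higher in KO3 than in the mean of the other 2 libraries, with a median log2 difference of 0.11. For the 7 mt- messengers the same count was 4 of 7 and the median 0.01. With a single KO library this comparison has no test. No share over all tested genes is set beside these counts, so they cannot be read as particular to the members.

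**Figure D5:**
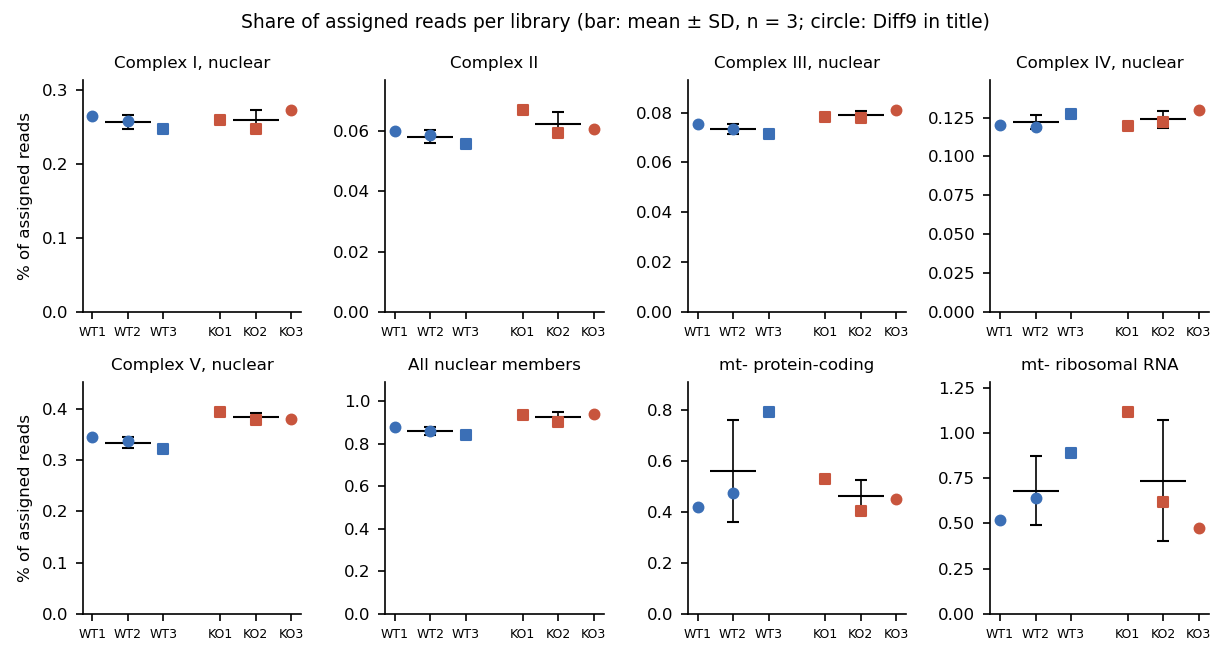
Percent of all assigned reads (vertical axis, from 0) taken by each group of members in each library (horizontal axis). Blue is WT, red KO, circles mark libraries with Diff9 in their titles, and black bars are the mean ± SD of 3 libraries. Complexes III and V and all nuclear members together are higher in every KO library, complexes I, II and IV overlap, and the mt- groups are led by WT3 or KO1.

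Of 22 annotated mitochondrial transfer RNAs, 15 were among the rows and 8 passed the filter. Transfer RNAs are short and heavily modified and are poorly captured by ordinary sequencing libraries. mt-Tc, which carries cysteine, made up 57.6 to 82.8% of all transfer RNA reads. It read 993, 925 and 1441 in WT and 1170, 1359 and 1210 in KO, with a log2 change of 0.18 ± 0.18 (SE; limma adjusted p = 0.671) and overlapping libraries. mt-Tp, which carries proline, followed at 161, 361 and 561 in WT and 128, 355 and 423 in KO, lowest in the shallow libraries WT1 and KO1. mt-Tl1, mt-Tm and mt-Tq had the same 2 lowest libraries, and the part of depth or library preparation in this was not tested. The genes of both lie on the strand opposite to most messengers, mt-Tc 70 bases before mt-Co1 and mt-Tp beside mt-Tt. Without strand, reads running through them from the other strand cannot be told apart. The genes of these leading transfer RNAs, as letters of the GRCm38 annotation's transcripts in their own sense, show how short the counted features are, 66 and 67 bases:
mt-Tc: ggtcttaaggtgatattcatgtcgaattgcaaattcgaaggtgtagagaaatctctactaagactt
mt-Tp: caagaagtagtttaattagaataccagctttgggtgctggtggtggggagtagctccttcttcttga
The other tested transfer RNAs were mt-Ti, mt-Tl1, mt-Tm, mt-Tn, mt-Tq and mt-Tt. Among them mt-Tt, for threonine, had the highest log2 change, 0.30 ± 0.34 (SE; limma adjusted p = 0.710), and mt-Tq, for glutamine, one of -0.45 ± 0.51 (SE; limma adjusted p = 0.712). Those under the filter, mt-Ta, mt-Te, mt-Tf, mt-Tl2, mt-Tr, mt-Ts2 and mt-Tv, read at most 13.4 in any library.

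The promoters of nuclear respiratory genes are known for sites of NRF1, GABP (an ETS factor), ERR alpha and YY1. RefSeq windows on GRCm38.p6, from 250 bases before to 50 bases after the start, were matched for 77 of the 94 nuclear members. The NRF1 core GCATGCGC, searched on both strands, was present in 12 of the 77 windows (15.6%) and in 3.05% of 27025 genes with a window. The YY1 core AAGATGGCG was present in 9 (11.7%, beside 1.64%), the ETS core CCGGAAGT in 5 (6.49%, beside 4.31%) and the ERR alpha word TCAAGGTCA in 2 (2.60%, beside 0.466%). Only the window of Uqcr11 held 2 of the 4 words, at separate places, and a match describes the letters only. The windows of 3 members with KO wholly above WT and a match before the start are shown, 170 bases 5′ to 3′ up to the base before the start, with the matches in capitals (NRF1 core in Cycs and Cox6a1, ERR alpha word in Atp5g3, on the strand as read or its reverse):
Cycs, chr6:50566570-50566739, minus strand: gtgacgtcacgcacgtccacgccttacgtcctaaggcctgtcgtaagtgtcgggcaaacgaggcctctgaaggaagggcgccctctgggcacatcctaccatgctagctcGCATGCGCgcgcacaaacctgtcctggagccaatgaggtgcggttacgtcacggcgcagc
Cox6a1, chr5:115348959-115349128, minus strand: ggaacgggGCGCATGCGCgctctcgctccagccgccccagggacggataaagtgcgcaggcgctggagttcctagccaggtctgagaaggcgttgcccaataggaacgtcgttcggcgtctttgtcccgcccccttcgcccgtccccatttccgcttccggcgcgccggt
Atp5g3, chr2:73911327-73911496, minus strand: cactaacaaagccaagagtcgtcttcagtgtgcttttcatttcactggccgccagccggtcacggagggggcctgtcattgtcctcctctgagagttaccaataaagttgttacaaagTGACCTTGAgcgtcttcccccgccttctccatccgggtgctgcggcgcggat
Of the 12 members with the NRF1 core, 4 were higher in KO without overlap (Atp5k, Cox6a1, Cycs and Sdhb), 1 was lower without overlap (Ndufa8) and 7 overlapped. Over all tested genes 12.8% were higher and 10.8% lower without overlap. The match of Ndufa8 also lies before the start, and its window is not shown. Whether the core goes with a change was not tested. Of the factors themselves, Gabpa, Gabpb1, Esrra and Yy1 had log2 changes of 0.01, 0.13, 0.28 and 0.25, with overlap except for Yy1. Nrf1 read 1688, 1723 and 1430 in WT and 2118, 1880 and 1895 in KO, without overlap, with a log2 change of 0.29 ± 0.11 (SE; limma adjusted p = 0.333).

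Other genes of the pathway came from lists of assembly factors, genome expression factors, regulators and citric acid cycle enzymes, and 0 of them passed the test in either direction. Of 12 nuclear regulators of mitochondrial genes, 8 were above 0 and 4 below, with a median log2 change of 0.05. Esrrg, the oestrogen-related receptor gamma, which drives oxidative genes in heart, read 189, 146 and 93.4 in WT and 256, 362 and 316 in KO. It was higher without overlap, by 1.16 ± 0.28 on the log2 scale (SE; limma adjusted p = 0.227). Of 27 genes of mitochondrial genome expression, 19 were above 0, with a median of 0.13. Tfam, which packages and transcribes mitochondrial DNA, read 1982, 1971 and 2031 in WT and 2567, 2344 and 2321 in KO, a log2 change of 0.27 ± 0.09 (SE; limma adjusted p = 0.289). Polg2, the accessory subunit of the mitochondrial DNA polymerase, went the other way, at 398, 408 and 349 in WT and 223, 254 and 286 in KO, a log2 change of -0.60 ± 0.15 (SE; limma adjusted p = 0.232). Both were without overlap.

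The citric acid cycle supplies complexes I and II with NADH and succinate. Of 17 genes 14 were above 0, with a median log2 change of 0.18, and summed levels ranged from 44187 to 50120 in WT and from 49862 to 55517 in KO, with overlap. Sucla2, the ATP-forming succinyl-CoA ligase subunit, on chromosome 14, read 2380, 2529 and 2898 in WT and 4822, 3506 and 4716 in KO. Its log2 change was 0.73 ± 0.15 (SE; limma adjusted p = 0.201). Dlat, the acetyltransferase of pyruvate dehydrogenase, had a log2 change of 0.28 ± 0.11 (SE; limma adjusted p = 0.320), also without overlap.

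Assembly factors were divided. Among 6 of complex III, 4 were above 0 and the median was 0.01. Lyrm7, which hands the Rieske protein Uqcrfs1 to the complex, read 106, 111 and 126 in WT and 83.0, 67.0 and 72.6 in KO. It was lower without overlap, by -0.62 ± 0.20 on the log2 scale (SE; limma adjusted p = 0.286), while its client Uqcrfs1 was higher. Uqcc1, a cytochrome b assembly factor, had a log2 change of 0.14. Among 18 tested factors of complex IV, 10 were above 0 and 8 below. The copper chaperone Sco1 and Coa7 were both higher without overlap, with log2 changes of 0.47 ± 0.18 and 0.31 ± 0.13 (SE; limma adjusted p = 0.330 and 0.342). Cox17 was also higher without overlap, at 0.26. Cox14, Cox18 and Coa6 were lower without overlap, at -0.11, -0.21 and -0.26. Of 6 complex V assembly and regulatory factors 5 were above 0, and Atpaf1 and Atpaf2, chaperones of the beta and alpha subunits, had log2 changes of 0.27 and 0.33. Of 8 complex I factors outside the Ndufaf series 6 were above 0, with Acad9 at 0.15 and Foxred1 at 0.18. Of 4 complex II factors 2 were above 0, with Sdhaf1 at 0.21 and Sdhaf4 at -0.27.

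The X-linked members Ndufa1, Ndufb11 and Cox7b had log2 changes of -0.07, 0.06 and 0.11, all with overlap. Of the 7 pseudogenes 4 were tested, 3 above and 1 below 0, none with separated libraries. Atp5l-ps1, Atp5l-ps2 and Atp5l2-ps, which share sequence with Atp5l, read at most 2.22. The 14 members that did not pass the filter were these 3 pseudogenes, 7 transfer RNAs and the nuclear genes Cox6a2, Cox7b2, Cox8b and Cox8c.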

How the data were processed

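Each deposited table gives 30631 genes by Ensembl ID and symbol with a single value column. The tools named in the submitters' processing notes are BWA, HTSeq, CASAVA 1.8.2 and DESeq2 1.14.0, with build mm10 and without their roles. The deposited values are taken here, from the values themselves, as reads per gene divided by 1 size factor per library: all of them were whole multiples of 1 step per library within 0.1 reads, and division by that step gave the reads used for shares and depth. Gene positions and transcript lengths came from GENCODE M21 (30497 IDs matched). Levels per kb used the longest principal transcript.

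Members were taken by symbol. The 3 libraries of each label were compared with limma 3.58.1 (R 4.3.3) on log2(value + 1), with trended empirical Bayes, two-sided tests and Benjamini-Hochberg adjustment over the 17034 genes with at least 10 in at least 3 libraries. A log2 change on this scale understates changes of low genes. Intervals are 95% intervals for the difference between group means. They come from the SE of the limma fit, which reflects the spread between libraries. The script was tested on simulated data. Members and lists were chosen with earlier results of these data known. Named genes were taken by rule: every complex II gene, Cyc1 and Cycs, the tissue forms, the 3 lowest p of each other complex, the mt- messengers and ribosomal RNAs, the 3 lowest p of the transfer RNAs, the 2 highest levels per kb of each complex, X-linked members, and the 2 lowest p of each pathway list. Ndufa4 and Ndufa4l2 are given with complex IV, and complex V was taken by symbol alone. Other members were named after their values were seen. Alternatives covered the pseudocount, the filter, scaling, left-out libraries, a Diff9 block and voom with and without sample weights.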

Additional observations from a re-analysis of the deposited data

How the results depend on the processing

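No member was called under any of the 17 other settings run. TMM scaling and 2 count tests were intended and not run. No paired analysis was possible because the labels number no replicates, and the titles share only Diff9 across labels. A block for Diff9 is given instead. Genes called over the whole table went from 0 to 2 without a filter and to 303 under voom with sample quality weights, and leaving out 1 library gave 0 to 51, the highest without KO2. Nuclear members at an unadjusted p under 0.05 went from 9 to 5 with scaling by totals without mt- genes and 5 by upper quartiles, to 1 with WT1 and WT2 counted as 1 sample and to 23 under weighted voom. Leaving out 1 library gave 2 to 19: 2 without WT1, 2 without WT2, 19 without WT3, and 4 without KO1 or KO2. For mt- members the count of 0 became 1 under weighted voom and ranged from 0 to 3 with a library left out (3 without WT1, 1 without WT3). The median log2 change of the nuclear members, 0.09, was 0.050 with scaling by library totals, 0.050 by totals without mt- genes, 0.065 by upper quartiles, 0.069 with WT1 and WT2 as 1 sample and 0.13 under weighted voom, and ranged from 0.060 to 0.12 with a library left out. It stayed above 0 in these settings. Under the scalings by library totals, totals without mt- genes and upper quartiles, the median of all tested genes moved as well. It went from 0.013 to -0.025, -0.026 and -0.010. With the filter raised to 50 it rose to 0.046, beside 0.10 for the nuclear members. The median of the 7 mt- messengers ranged from -0.61 without WT1 to 0.11 without WT3.

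Of 59 named genes tested, 46 kept their direction in every setting and 13 did not, in 30 of 999 comparisons. With WT1 and WT2 as 1 sample, Cox4i2 was at 0.066 and mt-Rnr2 at -0.030. With the Diff9 block, Cox7a2l was at 0.019, Sdhc at 0.019, mt-Rnr1 at -0.090 and mt-Rnr2 at -0.17. Under weighted voom, Cox7a2l was at 0.014, Ndufa7 at -0.030, mt-Co1 at 0.084, mt-Nd1 at 0.17 and mt-Nd5 at 0.090. Scaling by library totals, with or without mt- genes, put Ndufa7 at -0.0044 and -0.0050. With a library left out, log2 changes ranged from -1.12 to 0.28 for Cox4i2, -0.53 to 0.0041 for Cox7a1, -0.092 to 0.053 for Cox7a2l, -0.053 to 0.096 for Ndufa7, -0.0021 to 0.30 for Sdha, -0.094 to 0.044 for Sdhc, -0.32 to 0.11 for mt-Co1, -0.38 to 0.21 for mt-Nd1, -0.58 to 0.17 for mt-Nd5, -1.12 to 0.14 for mt-Nd6, -0.21 to 0.36 for mt-Rnr1, -0.27 to 0.37 for mt-Rnr2 and -0.82 to 0.0029 for mt-Tq. Under weighted voom Esrrg (1.02, adjusted p = 0.0436) and Sucla2 (0.82, adjusted p = 0.0192) passed the threshold. Leaving out 1 library moved the log2 change of 36 of the 59 by over 1.5 times. The complex medians stayed above 0 with a library left out: complex II from 0.10 to 0.22, complex III from 0.13 to 0.20, complex V from 0.11 to 0.21. With the Diff9 block the medians of complexes IV and V were 0.026 and 0.14. Summing complex V and all nuclear members without Atp5a1 and Atp5b, chosen after seeing the data, gave differences of 0.00974 and 0.0263 percentage points, against 0.0496 and 0.0662. The causes were not tested.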
